A study of Homo sapiens with 6 samples.

Results

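The small nuclear and nucleolar RNAs are the rows of the deposited gene table typed snRNA or snoRNA whose mean level over the 6 libraries was 1 CPM or more, CPM being counts per library total in the usual scaling (counts per 1e6). No row carried the type scaRNA. Of 60461 genes in the table, 3371 were of these types (1913 snRNA and 1458 snoRNA), 895 of them had at least 1 count, and 66 reached the threshold: 22 typed snRNA and 44 typed snoRNA. By name, the 66 divided into 22 snRNAs of spliceosomal families, 17 box C/D snoRNAs (SNORD genes and U3), 19 box H/ACA snoRNAs (SNORA genes), 6 SCARNA genes and 2 other snoRNAs, snoU2_19 and snoU2-30. The snRNAs include genes named as pseudogenes: RNU1-60P, RNU1-122P, RNU2-59P, RNU2-63P, RNU5A-8P and RNU5E-4P. Because the level chose the 66, how abundant they are is a description. Closest to the threshold, RNU6-2 (1.03 CPM) and SNORA54 (1.02 CPM) fell inside, and SNORD20 (0.986 CPM) and RNU2-64P (0.919 CPM) fell outside.

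The cells were of the line MDA-MB-231, derived from a triple-negative breast cancer, and the study asked which transcripts change when the RNA editing enzyme ADAR1 p110 is raised. ADAR1 p110, which deaminates adenosine in double-stranded RNA and resides mainly in the nucleus, was delivered by adenovirus in 3 samples, and the 3 control samples received an adenovirus coding for eGFP (here GFP). Both groups therefore carried an adenoviral vector at a multiplicity of infection of 200, had their medium replaced at 16 h and were lysed at 48 h, and untransduced cells were not analysed here. The libraries were named biological replicates without further detail on the cultures, so each p-value reflects how far these 6 libraries scattered, which may be technical.

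Spliceosomal snRNAs form, with Sm or LSm proteins, the particles that recognise splice sites and carry out splicing. Box C/D snoRNAs guide methylation of the ribose, and box H/ACA snoRNAs guide conversion of uridine to pseudouridine, mostly in ribosomal RNA, while a few such as U3 and U17 act in cleavage of the ribosomal RNA precursor. SCARNA genes encode related guides that act on snRNAs in Cajal bodies. In mammals most guides are cut from introns of host genes, whereas snRNAs and U3 have promoters of their own.

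The sequences below come from the GRCh37 (hg19) genome, the build of the deposited coordinates, at which all 66 members were found in the annotation with the same coordinates and strand. They are written 5′ to 3′ as DNA. The first set shows 6 box H/ACA RNAs that stood apart in 1 library, as described further on, with SNORA71C, a relative of 2 of them, and SNORA12. The level of SNORA12 ran from 7.53 to 9.98 CPM (scaled as given below), highest in GFP replicate 2. Capitals mark the H box match nearest to the middle of the gene, ANANNA centred between 33.3% and 66.7% of its length, and the ACA box, ACA ending 0 to 4 bases from the end of the gene.
SNORA71A (chr20:37055952-37056085, minus strand): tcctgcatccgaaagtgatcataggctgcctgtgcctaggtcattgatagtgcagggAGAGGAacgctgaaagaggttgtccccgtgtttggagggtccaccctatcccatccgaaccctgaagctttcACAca
SNORA71C (chr20:37058313-37058446, minus strand): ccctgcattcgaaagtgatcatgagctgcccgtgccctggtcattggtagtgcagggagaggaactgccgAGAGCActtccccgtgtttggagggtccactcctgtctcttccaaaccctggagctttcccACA
SNORA71D (chr20:37062508-37062641, minus strand): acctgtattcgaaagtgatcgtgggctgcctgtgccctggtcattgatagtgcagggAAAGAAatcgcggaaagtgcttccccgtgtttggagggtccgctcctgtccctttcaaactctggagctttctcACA
SNORA79 (chr14:20791338-20791485, minus strand): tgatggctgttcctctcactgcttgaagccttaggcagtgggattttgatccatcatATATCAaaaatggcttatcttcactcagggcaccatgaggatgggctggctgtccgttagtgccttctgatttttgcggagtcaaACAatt
SNORA49 (chr12:132515769-132515904, plus strand): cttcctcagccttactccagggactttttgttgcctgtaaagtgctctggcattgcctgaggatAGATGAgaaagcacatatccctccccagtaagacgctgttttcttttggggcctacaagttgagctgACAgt
SNORA34 (chr12:49048165-49048301, minus strand): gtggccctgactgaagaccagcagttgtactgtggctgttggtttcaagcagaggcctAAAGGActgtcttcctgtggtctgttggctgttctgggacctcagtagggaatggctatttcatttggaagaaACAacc
SNORA54 (chr11:2985001-2985123, minus strand): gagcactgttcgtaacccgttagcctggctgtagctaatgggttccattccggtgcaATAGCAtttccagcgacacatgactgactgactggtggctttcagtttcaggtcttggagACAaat
SNORA12 (chr10:101996913-101997059, minus strand): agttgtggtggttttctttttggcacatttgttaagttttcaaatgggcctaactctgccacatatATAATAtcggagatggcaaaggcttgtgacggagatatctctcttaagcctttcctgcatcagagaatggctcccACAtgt

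Both motifs were searched on the strand of the RNA alone. Of the 19 box H/ACA members, 16 held the ACA box and 16 the H box, against 71.1% and 83.7% of the 398 SNORA rows of the table. In 3371 windows of the same lengths just upstream of the snRNA and snoRNA genes, 9.67% held the ACA box and 61.4% the H box, so the second motif is common in any sequence. SNORA71A, SNORA71C and SNORA71D lie in 1 host gene, SNHG17, and are related: SNORA71A shared 83.1% of aligned positions with SNORA71C and 82.4% with SNORA71D. In SNORA71A and SNORA71D the marked H box match directly follows gtgcaggg. SNORA71C also has a match there, AGAGGA, but its capitals mark a later match that lies nearer to the middle.

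The second set shows snRNAs. Capitals mark ACTTACCT near the 5′ end of U1, the bases that pair with the 5′ splice site, and ATTTTTG in U4, a site bound by Sm proteins. RNU4ATAC, the U4 homologue of the minor spliceosome, is printed without a searched motif.
RNU1-1 (chr1:16840617-16840780, minus strand): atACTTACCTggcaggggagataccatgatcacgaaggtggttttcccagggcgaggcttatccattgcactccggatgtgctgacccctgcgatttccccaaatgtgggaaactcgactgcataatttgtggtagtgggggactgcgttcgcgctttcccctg
RNU4-1 (chr12:120730900-120731040, minus strand): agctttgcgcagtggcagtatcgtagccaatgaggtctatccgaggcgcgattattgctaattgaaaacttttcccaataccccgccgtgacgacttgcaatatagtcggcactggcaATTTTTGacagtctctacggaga
RNU4-2 (chr12:120729566-120729706, minus strand): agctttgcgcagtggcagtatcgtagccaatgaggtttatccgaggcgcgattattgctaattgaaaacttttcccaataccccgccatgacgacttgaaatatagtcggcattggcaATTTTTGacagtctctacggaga
RNU4ATAC (chr2:122288457-122288583, plus strand): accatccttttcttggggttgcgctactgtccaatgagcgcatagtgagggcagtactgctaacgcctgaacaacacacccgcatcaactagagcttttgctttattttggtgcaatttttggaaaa

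The U1 bases were found in 5 of the 9 U1 members and in 36.4% of the 140 U1 rows of the table, and the U4 site in 2 of 2 members and 42.7% of 89 rows. Motifs were read on the RNA's strand, and the upstream windows held them in 0% and 2.31% of cases. RNU4-1 and RNU4-2 were identical at 137 of 141 positions. The sequence printed for RNU1-1 is also, base for base, that of RNVU1-18 and RNU1-2, and of RNU1-3, RNU1-4, RNU1-27P and RNU1-28P outside the 66. These identical genes were listed at quite different levels, 15.9 CPM for RNVU1-18, 9.73 for RNU1-1, 3.28 for RNU1-2, 0.238 for RNU1-4 and 0.0761 for RNU1-3, so counts of single copies are uncertain. Of the 66 members, 4 had such an identical copy, the other being RNU6-2.

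Box C/D RNAs carry a C box near the 5′ end and a D box near the 3′ end, shown in capitals for SNORD104, from SNHG25.
SNORD104 (chr17:62223443-62223512, plus strand): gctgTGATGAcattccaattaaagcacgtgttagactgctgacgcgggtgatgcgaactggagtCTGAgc

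The C box was searched as TGATGA in the first 25 bases and the D box as CTGA in the last 25, again on the RNA's strand. They were found in 11 and 14 of the 17 box C/D members, in 49.1% and 75.5% of the 470 rows of this class, and in 0.593% and 6.32% of the upstream windows. SNORD3A and SNORD3B-2, whose gene models of 699 and 791 bases are far longer than a guide snoRNA, held neither.

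ADAR, the overexpressed gene, was measured first: the counts were 76798, 100028 and 76593 with ADAR1 p110, against 22317, 19729 and 26799 under GFP, and the log2 fold change was 1.91 with an SE of 0.049 (edgeR adjusted p = 2.67e-09). The groups also differed strongly in NDRG2, which was at 0.211, 0.335 and 0.492 CPM with ADAR1 p110 and 546, 489 and 515 CPM under GFP (log2 fold change -10.54, edgeR adjusted p = 1.64e-11); whether the ADAR1 p110 and GFP transgenes were the sole difference between the groups was not tested. Library totals ran from 72741235 to 99589278 counts, so 0 counts would fit any level below 0.0301 to 0.0412 CPM, by library (counting error only). Of the line's markers, VIM, CD44, EGFR, KRT18 and FN1 were at 245 to 2065 CPM, the receptors ESR1 and PGR at no more than 0.0216 CPM, EPCAM at 10.4 CPM and CDH1 at 3.48 CPM. Among leukocyte and endothelial markers, PTPRC was at 0.279 CPM, CDH5 at 0.0218 CPM and CD3E at 0. In bulk RNA, fewer cells with an RNA and less of it per cell cannot be told apart.

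The 66 RNAs together took 0.164%, 0.135% and 0.142% of all counts with ADAR1 p110 (replicates 1, 2 and 3, the order used throughout) and 0.133%, 0.171% and 0.111% under GFP. The groups overlapped, and the library with the largest share and the library with the smallest were both GFP libraries. Gene models ran from 53 to 791 bases with a median of 136.5, and 56 were under 200 bases. Silica-column extraction and libraries of sheared total RNA recover such short RNA poorly, so the levels given are those of these libraries and not of the mature RNAs in the cell. Levels below are CPM scaled by TMM, edgeR's scaling between libraries.

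SNORD3A, a copy of the U3 RNA of the early ribosomal precursor complex, dominated. Its counts were 90964, 86162 and 71620 with ADAR1 p110 and 74852, 87560 and 69429 under GFP, or 1197, 874 and 926 CPM against 862, 1207 and 706 CPM. The 2 highest libraries, ADAR1 p110 replicate 1 and GFP replicate 2, came from different groups, and the groups overlapped. Means were 999 ± 174 and 925 ± 256 CPM (SD, n = 3 each), and the log2 fold change was 0.11 with an SE of 0.169 (edgeR adjusted p = 0.8). Leaving out 1 library at a time moved it between -0.05 (without GFP replicate 3) and 0.35 (without GFP replicate 2, adjusted p = 0.184), it was -0.04 without ADAR1 p110 replicate 1, and none of these 6 fits passed the threshold. Without both high libraries together it was 0.20 (edgeR adjusted p = 0.041), in a fit that called 1181 genes higher and 1424 lower of 19465. Leaving out the highest libraries of SNORD3A itself narrows its spread within each group, so no conclusion is drawn from that fit. The nuclear-retained RNAs MALAT1 and NEAT1 together were also highest in ADAR1 p110 replicate 1 and GFP replicate 2, at 0.281% and 0.311% of counts. The other 4 had 0.168% to 0.242%, and the part of this in the U3 values was not tested.

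Per kilobase of gene model SNORD3A stood at 1377 CPM, followed by SNORA73B at 206, SCARNA13 at 154 and SCARNA7 at 131. SNORA73B is the U17 RNA, needed for cleavage of the 18S precursor, and SCARNA13 and SCARNA7 guide modification of snRNAs. Of the snRNAs, RNVU1-18 was highest at 97.0 CPM per kilobase. RNU6-2, of the RNA at the catalytic centre of the spliceosome, was at 9.66 CPM per kilobase.

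Several well-known RNAs were listed at 0 in all 6 libraries: RNU2-2P, RNU7-1 (U7, which acts in histone pre-mRNA processing) and both rows named RN7SK, 1 typed snRNA and 1 miscellaneous RNA. Each of these rows shares its strand and span with another row of the table: RNU2-2P with WDR74, RNU7-1 with C12orf57, and the RN7SK rows with each other. Such overlap is not particular to them, since 44 of the 66 members also lie within a gene on their strand and have counts. Overlap was read from gene spans, without regard to exons. How reads that fall in 2 genes were counted is not given in the sources used here, and its part in these zeros was not tested. RNU6ATAC was at 0.356 CPM, below the threshold.

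The choice of members used the mean over all 6 libraries and not the contrast of ADAR1 p110 with GFP. Even so, SNORA49, SNORA54 and SNORA34 reached 1 CPM only with GFP replicate 2 included. Their fold changes below 0, and the box H/ACA values that include them, are therefore not independent of that choice. In the contrast none of the 66 was called at an adjusted p under 0.05 by edgeR's quasi-likelihood test over 18899 genes. All 66 had passed the filter on low counts. Of all tested genes 4.91% were called. DESeq2's Wald test called 2 of the 66, SNORA49 and SCARNA21, both lower, beside 599 genes higher and 713 lower among all 18899. With limma-voom 0 members were called, beside 372 genes higher and 586 lower. At an unadjusted p under 0.05 edgeR gave 12 of 66 (18.2%), 5 higher and 7 lower, against 18.6% of all tested genes. The groups did not overlap for 9 of 66 (13.6%), 3 higher and 6 lower, against 24.0% of tested genes. Among the 13381 tested genes with a mean of 1 CPM or more, these shares were 23.3% and 28.4%. The members' shares were thus near or below those of all tested genes, and below those of genes at 1 CPM or more.

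The median log2 fold change of the 66 was 0.002 (range -1.18 to 0.48, 34 above 0 and 32 below), beside 0.005 over all tested genes. Precision was lower than for most genes: the median SE was 0.158 for members and 0.096 for all genes. For the tested genes with a mean of 1 CPM or more it was 0.072. At this precision a change of less than about 1.5-fold in a typical member was often not detectable, since edgeR recovered 27 of 50 genes changed 1.5-fold in simulated counts, at the lower median SE of all genes.

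**Figure D1:**
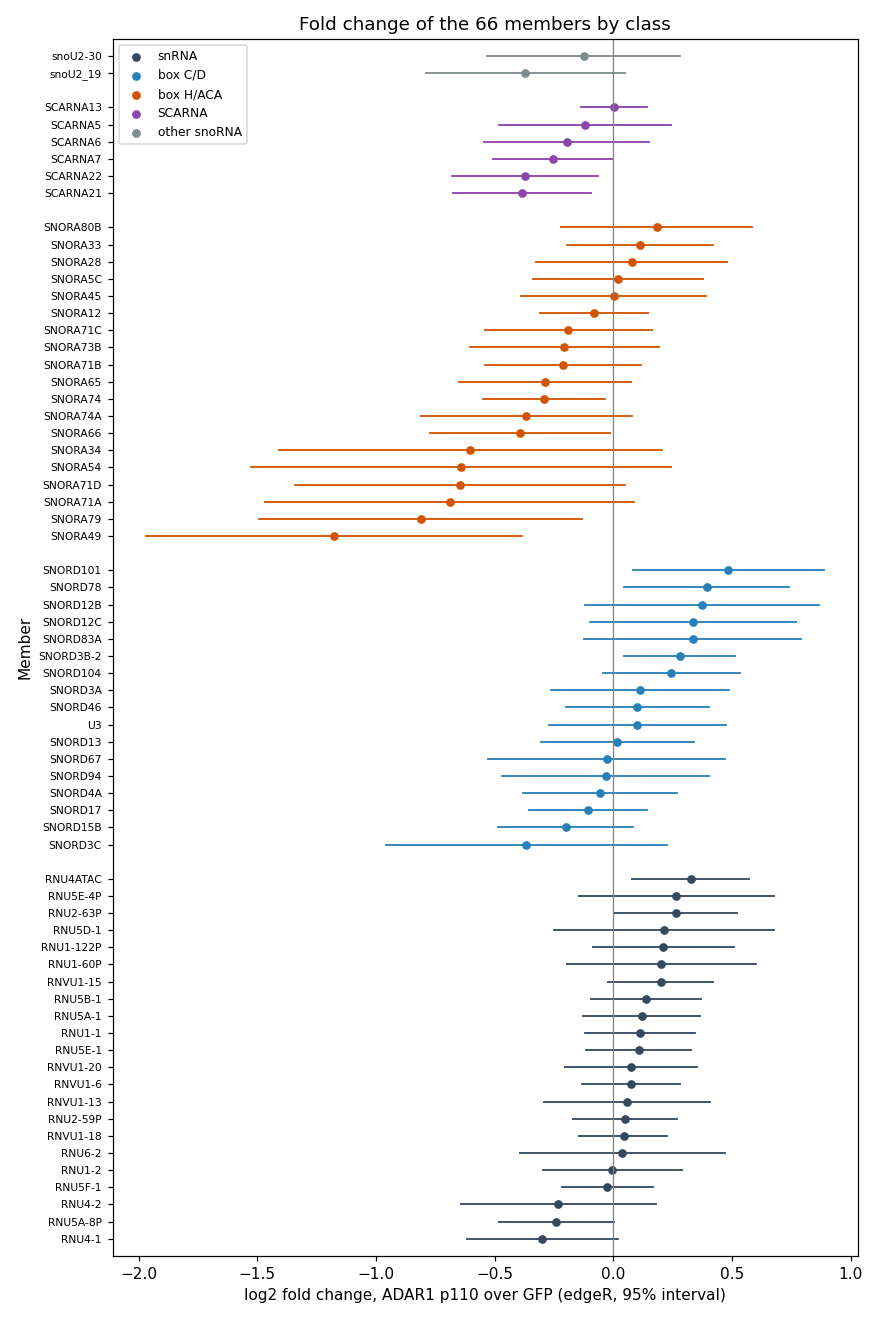
Estimated change of each of the 66 RNAs between the groups (horizontal axis, log2, positive where ADAR1 p110 was higher), 1 row per RNA grouped by class, with points for edgeR's estimate and bars for its 95% interval. Most snRNA and box C/D points lie at or above 0, most box H/ACA and SCARNA points below it, and the widest intervals belong to box H/ACA RNAs such as SNORA49.

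Among the members, the class medians lay on different sides of 0. Medians were 0.09 for snRNAs (17 of 22 above 0), 0.10 for box C/D (11 of 17 above 0), -0.29 for box H/ACA (14 of 19 below 0), -0.23 for SCARNA genes (5 of 6 below 0) and -0.25 for the 2 others. Differences between classes were not tested, since members of 1 class share hosts, libraries and, in part, sequence. The medians of snRNAs and box C/D RNAs were smaller than the median SE of a single member, 0.115 and 0.169. Among tested genes below 1 CPM, the 40 box H/ACA genes had a median of 0.014 (23 above 0, 17 below). Medians there were 0.052 for snRNAs, 0.22 for box C/D and -0.205 for SCARNA genes. The negative box H/ACA median thus did not extend to genes below the threshold. In leave-one-out fits the snRNA median ran from 0.06 (without ADAR1 p110 replicate 3) to 0.15 (without ADAR1 p110 replicate 1), and the box C/D median from 0.06 (without ADAR1 p110 replicate 2) to 0.20 (without GFP replicate 2). The box H/ACA median rested on GFP replicate 2: without that library it was -0.03. Leaving out any other library gave -0.20 to -0.36, while the SCARNA median ran from -0.12 (without GFP replicate 2) to -0.32 (without GFP replicate 3) and was -0.15 without GFP replicate 1.

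Among the snRNAs, U1 genes had a median log2 fold change of 0.08 (8 of 9 above 0), U5 genes of 0.12 (5 of 7 above 0) and both U4 genes were below 0. The U1 and U5 sets include genes named as pseudogenes. U1 recognises the 5′ splice site, and its most abundant member by CPM, RNVU1-18, was at 15.4, 16.2 and 16.8 CPM with ADAR1 p110 and 16.8, 13.8 and 16.4 CPM under GFP. These values overlapped, and the log2 fold change was 0.04 (SE 0.084, 95% interval -0.14 to 0.23). RNVU1-6 at 15.8 ± 1.98 against 15.1 ± 0.845 CPM, RNU1-1 at 10.1 ± 1.52 against 9.37 ± 0.212 CPM and RNVU1-20 at 8.76 ± 1.65 against 8.33 ± 0.549 CPM (SD, n = 3) overlapped likewise. ADAR1 p110 replicate 1 was the lowest library for 5 of the 9 U1 genes, and without it their median was 0.22; the other leave-one-out fits gave 0.05 to 0.13, the highest without GFP replicate 1. The U5 median ran from 0.06 without ADAR1 p110 replicate 1 and 0.07 without GFP replicate 3 to 0.19 without GFP replicate 1 and 0.21 without ADAR1 p110 replicate 2.

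RNU2-63P, a U2-like gene named as a pseudogene, had a log2 fold change of 0.26 (edgeR adjusted p = 0.265) with all 6 libraries and 0.38 (adjusted p = 0.0335) without ADAR1 p110 replicate 1. The latter fit left out its lowest ADAR1 p110 library, and called 795 genes higher and 1017 lower of 19715. RNU2-63P was picked after its values were seen. RNU4ATAC, which pairs with U6atac in the minor spliceosome, had 292, 394 and 342 counts with ADAR1 p110 and 310, 216 and 317 under GFP. In CPM these were 3.84, 4.0 and 4.42 against 3.57, 2.98 and 3.22. All 3 ADAR1 p110 libraries were above all 3 GFP libraries, with means of 4.09 ± 0.300 and 3.26 ± 0.299 CPM and a log2 change of 0.33 (SE 0.111), which did not pass edgeR's adjusted threshold (adjusted p = 0.139).

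The U4 genes, whose RNA holds U6 in the tri-snRNP before splicing, were set by 1 library. RNU4-1 was at 7.63, 8.25 and 7.99 CPM with ADAR1 p110 and 9.13, 12.6 and 7.83 CPM under GFP. RNU4-2 was at 5.73, 5.79 and 5.73 CPM with ADAR1 p110 and 5.61, 9.48 and 5.28 CPM under GFP. GFP replicate 2 was the highest for both, and the other 5 libraries lay close together. Their log2 fold changes were -0.30 (adjusted p = 0.302) and -0.23 (adjusted p = 0.571) with it and -0.08 and 0.08 without it.

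**Figure D2:**
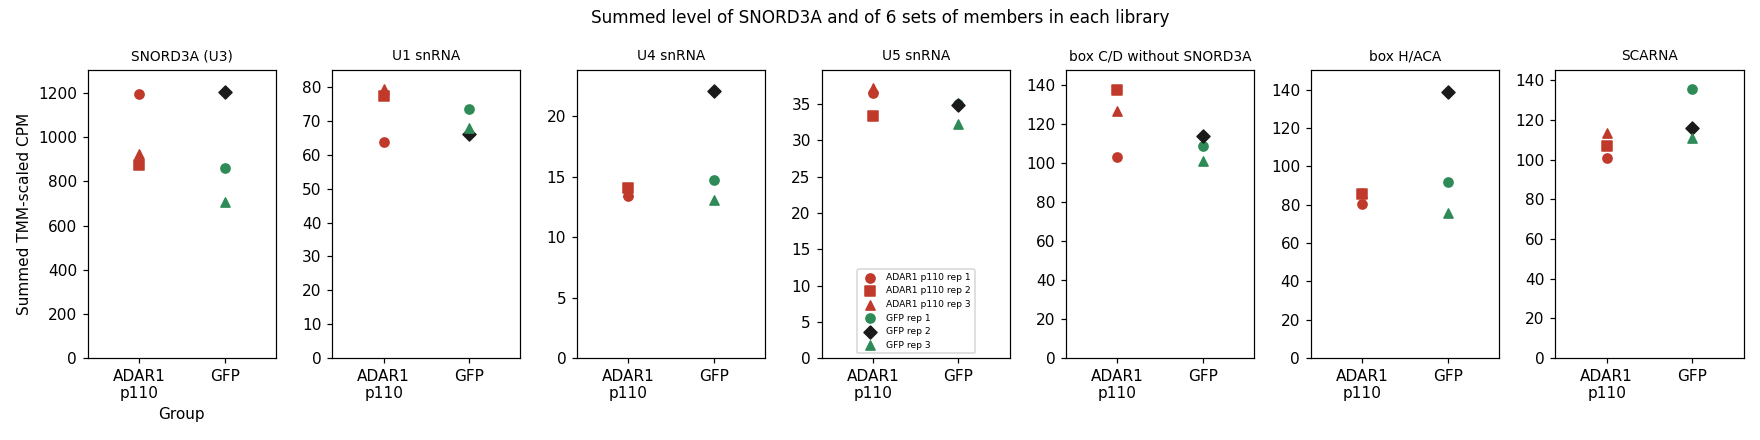
Summed TMM-scaled CPM (vertical axes, each from 0) of SNORD3A and of 6 sets of the RNAs in each library, ADAR1 p110 left and GFP right in each panel. GFP replicate 2 (black diamond) is the highest for U4, box H/ACA and, with ADAR1 p110 replicate 1, SNORD3A, and lies within the other libraries for U5 and box C/D without SNORD3A.

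Among box C/D RNAs, SNORD3B-2, another U3 gene, was at 64.1, 91.7 and 80.9 CPM with ADAR1 p110 and 65.6, 67.6 and 62.1 CPM under GFP. ADAR1 p110 replicate 1 lay among the GFP libraries and the other 2 above them. The log2 fold change was 0.28 (SE 0.105, edgeR adjusted p = 0.18), and it ran from 0.16 (adjusted p = 0.496) without ADAR1 p110 replicate 2 to 0.41 (adjusted p = 0.00127) without ADAR1 p110 replicate 1. The latter fit left out the lowest ADAR1 p110 library of SNORD3B-2, and it called 795 genes higher and 1017 lower of 19715. The split of reads between SNORD3A and SNORD3B-2 is uncertain, since over their aligned bases they differed at 3 positions besides gaps. A further row, named U3, lies within TEX14 and was at 3.64 ± 0.798 against 3.39 ± 0.522 CPM.

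SNORD17 (11.3 ± 1.37 against 12.2 ± 1.66 CPM) and SNORD4A (3.95 ± 0.755 against 4.13 ± 0.480 CPM) overlapped between groups. Their hosts are SNX5 and RPL23A. The 2 box C/D RNAs whose groups did not overlap were picked after their values were seen. SNORD78, 1 of the guides in the introns of GAS5, was at 1.8, 1.9 and 2.12 CPM with ADAR1 p110 and 1.69, 1.48 and 1.27 CPM under GFP, and SNORD101, in RPS12, at 1.07, 1.46 and 1.36 against 0.945, 0.937 and 0.905 CPM. Their log2 fold changes were 0.39 (adjusted p = 0.204) and 0.48 (adjusted p = 0.179), and neither host was called (GAS5 0.15, RPS12 0.11). Below the threshold of 1 CPM, 123 more genes of these types were tested, and 1 was called: SNORD14E, at 0.598 CPM on average, with a log2 fold change of 1.26 (adjusted p = 0.0423).

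Of the 6 SCARNA genes none was called by edgeR (smallest adjusted p 0.138), and 3 had an unadjusted p under 0.05. SCARNA21, in an intron of the chromatin remodeller gene CHD3, was at 9.36, 10.3 and 10.4 CPM with ADAR1 p110 and 16.4, 11.3 and 11.5 CPM under GFP. The groups did not overlap, although GFP replicate 1 stood far above the other GFP libraries, and the log2 fold change was -0.39 (SE 0.131, edgeR adjusted p = 0.138). Without GFP replicate 1 it was -0.19 (adjusted p = 0.364), while DESeq2 with all 6 libraries gave -0.39 with an adjusted p of 0.032. SCARNA22, also known as ACA11 and encoded in NSD2, was at 7.36 ± 1.05 against 9.58 ± 1.83 CPM, a log2 fold change of -0.37 (adjusted p = 0.175) that was -0.21 without GFP replicate 2.

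SCARNA7, in KPNA4, was at 39.4 ± 5.06 against 47.0 ± 7.69 CPM (adjusted p = 0.267). SCARNA13, in SNHG10, was nearly level at 42.3 ± 1.76 against 42.2 ± 2.60 CPM, with a 95% interval of the log2 fold change of -0.14 to 0.14. SCARNA5, in ATG16L1, was at 4.61 ± 0.735 against 5.02 ± 1.11 CPM. None of these hosts was called.

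Several box H/ACA RNAs stood apart in GFP replicate 2. SNORA71A, a guide for 18S ribosomal RNA, was at 8.15, 8.35 and 9.18 CPM with ADAR1 p110 and 9.67, 24.8 and 7.24 CPM under GFP. SNORA79 was at 1.58, 1.84 and 1.94 CPM with ADAR1 p110 and 2.54, 5.14 and 1.85 CPM under GFP. SNORA49 was at 0.632, 0.558 and 0.815 CPM with ADAR1 p110 and 1.03, 2.55 and 0.996 CPM under GFP. In each of them GFP replicate 2 was the highest library by far, and in SNORA71A and SNORA79 the other 5 overlapped between groups.

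**Figure D3:**
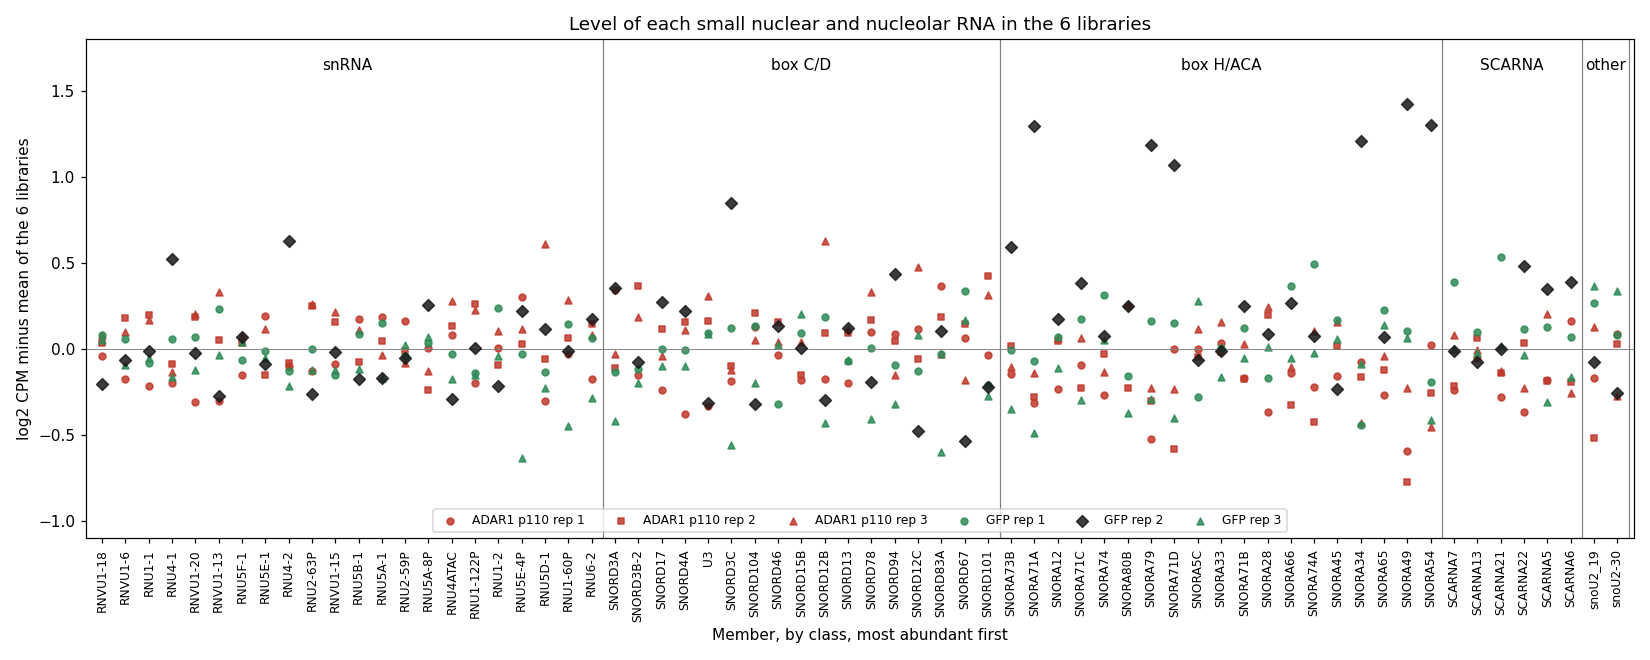
Log2 CPM of each RNA in each library minus its mean over the 6 libraries (vertical axis), with RNAs ordered by class and by level (horizontal axis). GFP replicate 2 (black diamond) stands above the rest for SNORA73B, SNORA71A, SNORA79, SNORA71D, SNORA34, SNORA49 and SNORA54, for both U4 genes and for SNORD3C.

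This pattern was noticed in the values and is described without a test. In 10 of the 66 RNAs (15.2%) GFP replicate 2 was at least 1.5 times the median of the other 5 libraries, against 1.43% of 13381 tested genes with a mean of 1 CPM or more. They were 7 of 19 box H/ACA RNAs (36.8%), both U4 genes and SNORD3C, and none of the 6 SCARNA genes. SCARNA22, SCARNA5 and SCARNA6 lay just below the ratio of 1.5, at 1.43, 1.44 and 1.46. The median ratio was 1.26 in SCARNA genes and 1.30 in box H/ACA RNAs. The ratios of the 7 were 3.13 for SNORA49, 2.97 for SNORA71A, 2.95 for SNORA54, 2.78 for SNORA79, 2.59 for SNORA34, 2.47 for SNORA71D and 1.63 for SNORA73B. The means of SNORA49, SNORA54 and SNORA34 reached 1 CPM only with GFP replicate 2 included. In the other libraries they were at 0.558 to 1.03, 0.673 to 0.935 and 0.795 to 1.03 CPM. The counts of RNAs given here therefore include RNAs chosen through the library in which they were high. GFP replicate 2 was the highest library for 23 of 66 RNAs (34.8%) and for 10 of 19 box H/ACA RNAs (52.6%), against 15.1% of those genes. ADAR1 p110 replicate 1, the other library that stood high for SNORD3A, reached 1.5 times the median of the rest in 0 of 66.

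Among genes of these types below 1 CPM, where counts are few, each library exceeded the rest more often: of 123 tested, 27 reached the ratio in GFP replicate 2 and 27 in ADAR1 p110 replicate 1. Among the 40 box H/ACA genes in that group, 11 did so in GFP replicate 2 and 6 in ADAR1 p110 replicate 1. Genes under 200 bases outside the 66 took 0.0200% of counts in GFP replicate 2, within the 0.0166% to 0.0210% of the other 5 libraries, and ribosomal protein genes took 4.53%, beside 4.50% in ADAR1 p110 replicate 1 and 4.95% to 5.08% in the other 4. The part of library preparation in the pattern was not tested.

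**Figure D4:**
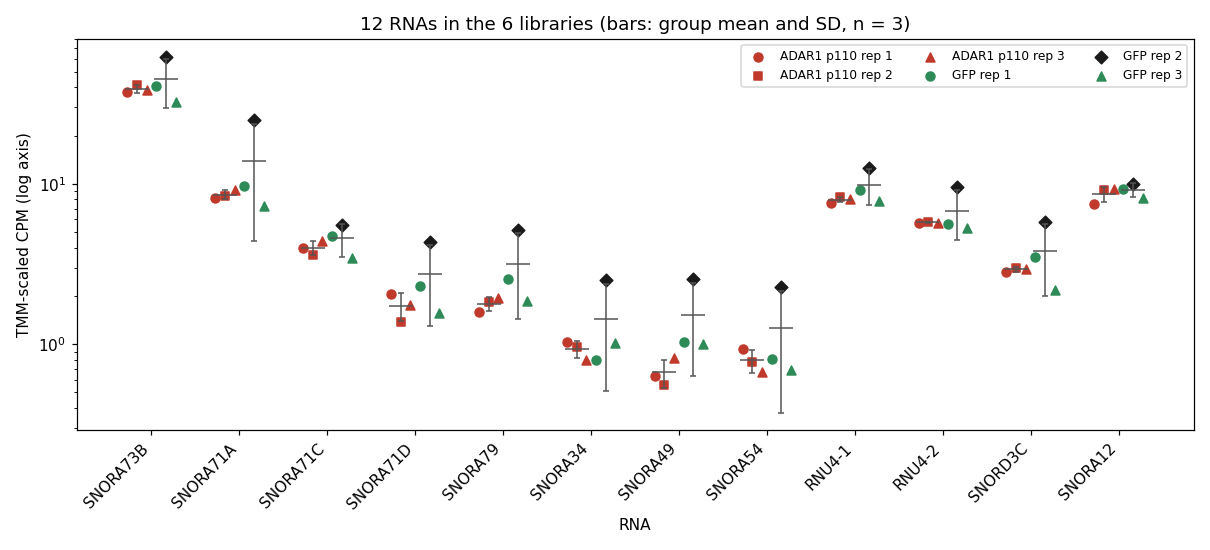
TMM-scaled CPM on a log axis (vertical) of 12 RNAs (horizontal) in each library, with a horizontal line for the group mean and bars for the SD (n = 3). For SNORA71A, SNORA79, SNORA34, SNORA49 and SNORA54 the black diamond of GFP replicate 2 lies far above the other 5 points, and for SNORA12 all 6 lie within 7.53 to 9.98 CPM.

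The fold changes of these RNAs followed that library. The log2 fold change of SNORA71A was -0.69 with an SE of 0.351 (edgeR adjusted p = 0.333) in all 6 libraries and 0.03 without GFP replicate 2. SNORA54 went from -0.64 to 0.09, SNORA34 from -0.60 to 0.04, SNORA73B from -0.21 to 0.10 and SNORD3C from -0.37 to 0.06. SNORA79 kept a value below 0, from -0.81 (adjusted p = 0.182) to -0.29, as did SNORA71D, from -0.65 to -0.15. SNORA49, whose groups did not overlap, had -1.18 (SE 0.358, adjusted p = 0.0972) and, without GFP replicate 2, -0.60 (adjusted p = 0.245). SNORA71D, SNORA79, SNORA34, SNORA49 and SNORD3C were picked after their values were seen.

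Relatives and neighbours of these RNAs did not all reach the ratio of 1.5. GFP replicate 2 was nonetheless the highest library for SNORA71C, SNORA71B and SNORA12 too. SNORA71C, 85.8% identical to SNORA71D and from the same host, was at 3.96, 3.61 and 4.41 CPM with ADAR1 p110 and 4.76, 5.51 and 3.44 CPM under GFP, and its ratio for GFP replicate 2 was 1.39. SNORA71B, with a longer gene model of 272 bases in the same host, had a ratio of 1.23. Hence the 4 SNORA71 genes of SNHG17 ran from 1.23 to 2.97. SNORA12, in CWF19L1, was at 8.64 ± 0.967 against 9.16 ± 0.898 CPM, a log2 fold change of -0.08 (95% interval -0.31 to 0.15).

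Length and GC content of the 7 box H/ACA RNAs that reached the ratio of 1.5 overlapped with those of the other 12. GC content ran from 45.9% to 54.9% (median 50.4%) in the 7 and from 40.8% to 59.1% (median 52.2%) in the 12, and length from 123 to 204 bases against 53 to 272 bases. All 7 held the ACA box and the H box, and 9 of the 12 held each. Another pattern was that of SNORA74, the U19-like gene of SNHG4, which was at 2.91, 3.43 and 3.19 CPM with ADAR1 p110 and 4.36, 3.69 and 3.64 CPM under GFP. Its groups did not overlap, but the log2 fold change of -0.29 (SE 0.116) did not pass edgeR's adjusted threshold (adjusted p = 0.205).

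Host genes were read from the same table. Of the 66 RNAs, 44 lay within a gene on the same strand, and 34 distinct hosts were tested, of which 0 were called by edgeR and 4 (11.8%) had an unadjusted p under 0.05, against 4.91% and 18.6% of all tested genes. SNHG17, the noncoding host of the SNORA71 genes, was at 39.1, 33.7 and 38.1 CPM with ADAR1 p110 and 38.8, 35.8 and 35.2 CPM under GFP, and GFP replicate 2 did not stand out in it. CCNB1IP1 (host of SNORA79), KANSL2 (SNORA34) and NAP1L4 (SNORA54) had ratios of GFP replicate 2 to the median of the rest of 0.935, 0.983 and 0.991.

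For the other 2 hosts the ratio was raised: 1.56 for SNHG3, host of SNORA73B, and 1.55 for EP400, host of SNORA49. SNHG3 was at 128, 157 and 143 CPM with ADAR1 p110 and 145, 222 and 118 CPM under GFP, close in shape to SNORA73B at 37.2, 41.6 and 38.2 against 40.9, 62.1 and 32.3 CPM. EP400 was also high in ADAR1 p110 replicate 1, at 36.8 CPM against 18.4 to 23.2 CPM in the 4 libraries other than these 2, where SNORA49 was not. Reads of unspliced host transcripts over an intronic gene cannot be told apart from reads of the processed RNA in these counts. Across 43 pairs the correlation of member and host was 0.05 for log2 fold changes and 0.21 for log2 ratios of GFP replicate 2, points that share libraries and, in part, hosts.

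**Figure D5:**
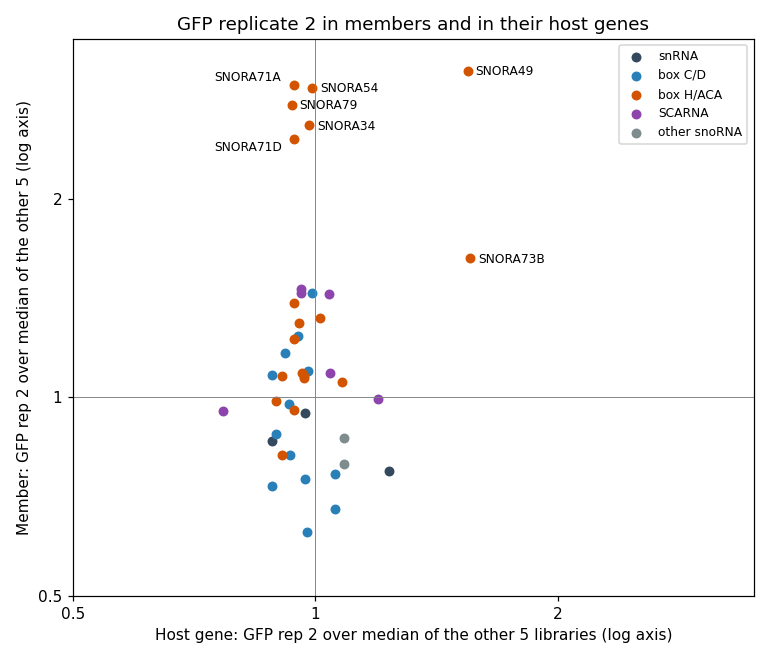
Ratio of GFP replicate 2 to the median of the other 5 libraries in each host gene (horizontal, log axis) and in the RNA it contains (vertical, log axis), 1 point per pair, coloured by class. SNORA73B and SNORA49 are raised together with their hosts, and SNORA71A, SNORA54, SNORA79, SNORA34 and SNORA71D while their hosts stay near 1.

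The 16 RNAs that overlap no other gene on either strand, 13 snRNAs and 3 U3 genes, had a median log2 fold change of 0.11, and the 44 within a host on their strand had -0.10. None of the 16 was called by edgeR, and 2 (12.5%) had an unadjusted p under 0.05, both higher, against 4.91% and 18.6% of all tested genes. Of the 44 none was called and 10 (22.7%) had such a p, 3 higher and 7 lower. The 44 hold the 7 box H/ACA RNAs raised in GFP replicate 2. Having a host and belonging to a class largely coincide here and cannot be told apart.

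Proteins and other RNAs of the same pathways were then read from lists written by function. None of their tested genes was called in either direction by edgeR, which called 4.91% of all tested genes: 11 of the box C/D particle and its assembly, 6 of the box H/ACA particle, 10 of Cajal bodies, 18 Sm and LSm proteins, 7 of the 7SK particle, 18 of the SMN complex, capping and transport, 26 of snRNA transcription and processing, 38 snRNP proteins, 29 snoRNA host genes known by name and 9 other structured RNAs. NOP56, a core box C/D protein, was at 265 ± 21.5 against 277 ± 13.5 CPM, and FBL, the methyltransferase of that particle, at 61.5 against 67.8 CPM. DKC1, the pseudouridine synthase of box H/ACA particles, had a log2 fold change of -0.004 (adjusted p = 0.98).

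In the Cajal body list the most abundant gene, NOLC1, was at 255 ± 5.31 against 287 ± 13.0 CPM, with a log2 fold change of -0.17 (adjusted p = 0.0942). SNRPB of the Sm ring, SF3B1 of the U2 snRNP and HEXIM1 of the 7SK particle had log2 fold changes of -0.03, -0.05 and -0.08. Among structured RNAs made from their own genes, RN7SL2 of the signal recognition particle (11360 ± 1739 against 11590 ± 966 CPM) and RMRP of RNase MRP (4861 against 5359 CPM) overlapped between groups, and TERC, the telomerase RNA, which itself carries an H/ACA domain, was at 99.2 against 86.0 CPM (log2 fold change 0.21, adjusted p = 0.139). For TERC the ratio of GFP replicate 2 to the other libraries was 0.905, and for RMRP it was 1.24.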

How the data were processed

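The deposited values are raw counts per gene in 1 table of 60461 genes, per the file headers. The authors used STAR 2.5.2a for alignment of stranded total RNA reads to hg19, and featureCounts 1.5.1 for counting, per the submitters' processing notes, which also name DESeq2 1.4.5 and R 3.1. Use of strand, of reads with several alignments and of reads in 2 genes is not given in the sources used here. Library totals ran from 72741235 to 99589278 counts, which sets the floor of 3 counts at 0.0301 to 0.0412 CPM.

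Groups came from the sample titles. Genes were kept by filterByExpr (minimum count 10) and tested with group as the only term by edgeR 4.0.16 (glmQLFit, glmQLFTest, TMM) in R 4.3.3. Benjamini-Hochberg adjustment ran over 18899 genes, with calls at an adjusted p under 0.05. Members, gene lists and alternatives were chosen with earlier results of these data known. Alternatives were DESeq2 1.42.0 size factors or its Wald test, library size alone, no filter, limma-voom (limma 3.58.1), a replicate block, scaling without ADAR and NDRG2 counts, thresholds of 0.5 and 5 CPM, RNAs overlapping no gene, and leaving out libraries. The rule for named genes took ADAR, called members, the 5 most abundant members of each class, those next to the threshold, minor-spliceosome and U7 RNAs, the most abundant gene of each list and the hosts of named members.

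A host is a gene that contains the RNA on its strand. Sequences were read from the GRCh37 primary assembly, and some are not reported here. The tests were tested on simulated counts of these 18899 genes, 50 changed by each fold: edgeR recovered 2, 27, 41 and 49 of 50 at 1.2-, 1.5-, 2- and 4-fold, with 10 false calls. Figures were drawn with matplotlib 3.10.9.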

Additional observations from a re-analysis of the deposited data

How the results depend on the processing

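With all 6 libraries, 0 members were called and 368 tested genes were higher and 559 lower. Without the low-count filter 1 member was higher (SNORD3B-2) and 8 lower (SNORA71A, SNORA71D, SNORA79, SNORA49, RNU4-1, SCARNA7, SCARNA21 and SCARNA22). Of the 34005 genes in that fit, 742 were higher and 811 lower. DESeq2's Wald test gave 2 members lower, and of 18899 genes 599 were higher and 713 lower. At a threshold of 0.5 CPM 1 more gene was higher, and RNAs overlapping no other gene had a median log2 fold change of 0.109. Leaving out 1 library at a time gave 0 to 2 members higher, 0 lower, 100 to 795 genes higher and 296 to 1017 lower, the highest counts without ADAR1 p110 replicate 1. Without that library and GFP replicate 2 together, 4 members were higher (RNVU1-15, RNU2-63P, SNORD3B-2 and SNORD3A) and 1 lower (SCARNA21). Of the 19465 genes in that fit, 1181 were higher and 1424 lower. The cause of these changes was not tested. Other scalings, limma-voom and removal of ADAR and NDRG2 counts gave 0 members, as did a threshold of 5 CPM.

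The replicate numbers did not pair the libraries: deviations from group means correlated at -0.20, -0.15 and 0.10 for equal numbers. Among all pairs across groups the largest correlation was 0.33, between ADAR1 p110 replicate 1 and GFP replicate 2, and its cause was not tested. With the replicate block 0 members, 175 higher and 333 lower genes were called. Medians of the 66 lay between -0.029 and 0.077 over all fits. Depth limits the members near 1 CPM, such as SNORA54, with 0.673 to 2.27 CPM.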
